A study of Mus musculus with 12 samples.

Results

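The 47 genes described here encode the mitotic spindle, the kinetochores and the regulators that take a cell through G2 and mitosis. Their rows were taken by symbol from 2 tables of raw gene counts with 55335 entries each, made by RNA-seq of whole organoid cultures of the mouse small intestine. All 47 symbols were found in both tables, and all 47 passed the filter on low counts in both. By role they comprise 5 cyclin, CDK1 and CDC25 genes, 7 genes of the mitotic kinases and the chromosomal passenger complex, 9 genes of the kinetochore and the spindle checkpoint, 10 genes of spindle motors and microtubule-binding proteins, 7 genes of cytokinesis, 6 genes of chromosome structure and 3 genes around the anaphase-promoting complex.

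The 12 libraries form 4 groups of 3, and each table holds 2 of the groups. The first table holds the RANKL group, given RANKL at 100 ng/mL for 6 days, and the ENR control group, kept in ENR medium (EGF, Noggin and R-spondin1) and labelled day 6. RANKL is the cytokine that turns intestinal epithelial cells into M cells. The second table holds the RANKL+CSRM617 group, given the same RANKL dose together with 40 µM CSRM617 hydrochloride, a compound reported to block the transcription factor ONECUT2, and the RANKL II group, a further set of cultures with RANKL alone. The protocol for M cell enrichment put 3 µM CHIR99021, an inhibitor of the kinase GSK3, and 1.5 mM valproic acid, an inhibitor of histone deacetylases, on the cultures for 3 days before 1 day in ENR and then RANKL. The control sample names begin with CVENR, and the labels do not say whether the controls also had CHIR99021 and valproic acid. Any effect of that step on the first comparison cannot be told apart from that of RANKL. All 4 groups are of the line named line26 wild type, Lgr5GFPDTR/+, organoids from 1 female mouse that carry GFP and the diphtheria toxin receptor at 1 Lgr5 allele. The replicates are separate differentiation experiments, so the p-values below measure the spread between cultures of 1 line and not between animals.

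As background, cells entering mitosis carry high CDK1 activity with cyclin A2 and then cyclin B, which CDC25 phosphatases and PLK1 help to switch on. The aurora kinases, the kinesin motors and the kinetochore then build the spindle and attach chromosomes to it, and the anaphase-promoting complex, opened by CDC20, destroys cyclin B and securin so that sister chromatids part. Most of these genes are transcribed in a wave in G2 and mitosis, under the DREAM complex, B-MYB and FOXM1, through a promoter element called the CHR. In the small intestine dividing cells are stem cells and transit-amplifying cells of the crypt, and mature enterocytes, Paneth cells and M cells do not divide.

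Library totals were 6351155 to 7719157 counts in RANKL, 5795541 to 7577492 in ENR control, 10225102 to 14041947 in RANKL+CSRM617 and 8669153 to 11241811 in RANKL II. The 47 genes together took 9106 to 28938 counts per library, and single genes ranged from the 5197 counts of Mki67 in RANKL replicate 1 to the 16 counts of Pttg1 in ENR control replicate 3. The share of counts at Gm26917 and Gm42418, where reads of ribosomal RNA accumulate, was 9.712% to 10.7% of counts in RANKL and 21.87% to 35.52% in ENR control, and 15.27% to 15.77% in RANKL+CSRM617 and 6.438% to 6.714% in RANKL II. Of 12 stromal and endothelial markers, 6 or 7 were at 0 in each group (Col1a2, Col3a1, Dcn, Lum, Cdh5 and Kdr in all of them), with summed levels of 10.7 to 14.6 CPM in RANKL and 6.66 to 7.3 CPM in ENR control, and 13.7 to 15.3 CPM in RANKL+CSRM617 and 9.79 to 11.8 CPM in RANKL II. Of the immune cell markers, Cd4, Cd8a and Adgre1 were at 0 in every group, and the list had sums of 4.52 to 6.5 CPM in RANKL and 5.86 to 7.08 CPM in ENR control, and 11.1 to 12.1 CPM in RANKL+CSRM617 and 6.22 to 8.65 CPM in RANKL II. The part of these cells in the results was not tested. Levels are CPM, counts scaled to a common library size, after TMM scaling within a table, and differences are log2 changes with the standard error (SE) from the quasi-likelihood test of edgeR, called at a Benjamini-Hochberg adjusted p under 0.05 over all genes of the table that were tested.

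Per kilobase of exon, the most abundant of the 47 was Mki67, the gene of the proliferation antigen Ki-67 that coats mitotic chromosomes, in all 4 groups. It averaged 53.1 CPM per kilobase in RANKL and 57.9 in ENR control, and 31.2 in RANKL+CSRM617 and 14.0 in RANKL II. Top2a, which encodes the topoisomerase that untangles sister DNA, ranked next in RANKL and in ENR control, with 34.8 and 40.4 CPM per kilobase. Incenp, the scaffold of the chromosomal passenger complex, had rank 5 in RANKL (21.2 CPM per kilobase), rank 3 in ENR control (36.9), rank 2 in RANKL+CSRM617 (20.4) and rank 5 in RANKL II (7.1). Cdc25c, a phosphatase that activates CDK1, was lowest in RANKL, RANKL+CSRM617 and RANKL II, at 2.13, 0.974 and 0.659 CPM per kilobase, and Pttg1, the gene of securin, was lowest in ENR control at 2.23.

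Promoter sequences from RefSeq (GRCm38.p6) covering 250 bases before to 50 bases after a start site were matched by symbol for 40 of the 47 genes, in 42 windows, since Ect2 and Prc1 have 2 starts each. Ccna2, Incenp, Tpx2, Kif20a, Cdc25c, Aurkb and Smc4 had no window. The CHR was searched on both strands as TTTGAA and, in its less common form, as TTCGAA. The motif of the factor NF-Y was searched on both strands as CCAAT. The common CHR form was found in 34 of the 42 windows, against 17.9% of all 32851 windows in the RefSeq table, and either form in 83.3%, against 19.2%. Within 50 bases of the start on either side, 76.2% of the members' windows held a CHR, against 5.31% of all windows. A CCAAT box was present in 73.8%, against 37.4%, 2 or more in 47.6%, against 11.7%, and a CHR with a CCAAT box in 69.0%, against 7.52%. For E2F only the string TTCCCGC was searched, again on both strands, and no other form of the motif. It was in 2.38% of the members' windows and in 4.6% of all windows. No motif contains another, though neighbouring matches can share bases.

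The windows below, cut at 30 bases after the start, show the pattern at genes that carry the results. Capitals mark both CHR forms and the CCAAT box on either strand, so that ATTGG stands for a CCAAT box, and TTCAAA for a CHR, on the other strand. Spag5 (astrin) and Cdc20 have a CHR next to the start with a pair of CCAAT boxes, and Ccnb2 (cyclin B2) has 2 CHRs and 3 CCAAT boxes. Top2a has 4 CHR matches and 6 CCAAT boxes, and Mki67 has 2 CHRs and 3 CCAAT boxes further upstream. Ect2 is shown because it went the other way from most members (1 of its 2 windows), and Cenpe because it has no CHR in its window. The Ect2 window holds a further CHR at positions 39 to 44 after the start, beyond the cut. These matches describe the letters in a window and not binding.
Spag5 (chr11:78301341-78301620, plus strand): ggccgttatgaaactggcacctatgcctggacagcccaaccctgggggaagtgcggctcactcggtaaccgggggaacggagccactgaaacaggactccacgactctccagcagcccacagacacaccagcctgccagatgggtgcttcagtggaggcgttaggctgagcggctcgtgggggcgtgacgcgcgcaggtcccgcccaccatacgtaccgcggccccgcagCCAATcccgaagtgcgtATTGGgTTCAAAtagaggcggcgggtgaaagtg
Cdc20 (chr4:118437314-118437593, minus strand): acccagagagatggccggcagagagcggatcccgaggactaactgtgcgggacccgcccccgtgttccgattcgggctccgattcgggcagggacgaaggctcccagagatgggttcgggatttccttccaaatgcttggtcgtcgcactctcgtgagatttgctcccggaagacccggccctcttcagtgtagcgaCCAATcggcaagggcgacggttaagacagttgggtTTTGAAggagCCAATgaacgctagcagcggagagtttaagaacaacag
Ccnb2 (chr9:70421525-70421804, minus strand): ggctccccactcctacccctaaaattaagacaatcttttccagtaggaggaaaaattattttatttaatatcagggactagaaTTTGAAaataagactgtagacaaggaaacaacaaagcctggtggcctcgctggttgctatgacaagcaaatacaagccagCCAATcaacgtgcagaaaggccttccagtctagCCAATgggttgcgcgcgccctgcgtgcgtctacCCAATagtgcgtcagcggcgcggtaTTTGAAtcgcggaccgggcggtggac
Top2a (chr11:99024160-99024439, minus strand): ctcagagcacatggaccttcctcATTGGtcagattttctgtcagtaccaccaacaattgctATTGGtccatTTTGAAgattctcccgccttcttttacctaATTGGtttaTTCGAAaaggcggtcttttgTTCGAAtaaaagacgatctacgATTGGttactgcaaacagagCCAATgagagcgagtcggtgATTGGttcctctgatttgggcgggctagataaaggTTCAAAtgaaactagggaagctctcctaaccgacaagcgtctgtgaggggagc
Mki67 (chr7:135716350-135716629, minus strand): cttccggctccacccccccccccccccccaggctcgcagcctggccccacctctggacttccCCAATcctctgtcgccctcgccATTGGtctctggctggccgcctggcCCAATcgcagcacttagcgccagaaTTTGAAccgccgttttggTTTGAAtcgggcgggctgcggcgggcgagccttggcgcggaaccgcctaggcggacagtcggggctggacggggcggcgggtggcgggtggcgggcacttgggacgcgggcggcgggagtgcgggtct
Ect2 (chr3:27153849-27154128, minus strand): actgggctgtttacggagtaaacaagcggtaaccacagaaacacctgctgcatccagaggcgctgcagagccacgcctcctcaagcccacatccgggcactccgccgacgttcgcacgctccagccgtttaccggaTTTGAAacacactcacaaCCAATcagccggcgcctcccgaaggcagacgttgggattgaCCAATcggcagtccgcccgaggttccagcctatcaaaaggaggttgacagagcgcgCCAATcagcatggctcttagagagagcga
Cenpe (chr3:135212313-135212592, plus strand): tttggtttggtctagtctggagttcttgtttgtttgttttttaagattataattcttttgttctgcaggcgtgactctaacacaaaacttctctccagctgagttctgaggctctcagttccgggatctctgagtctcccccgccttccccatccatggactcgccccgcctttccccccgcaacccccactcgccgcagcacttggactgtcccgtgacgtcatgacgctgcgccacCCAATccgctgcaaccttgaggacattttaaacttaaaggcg

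The first comparison set 6 days of RANKL against culture in ENR medium. Of the 47 mitotic genes, 1 rose, 15 fell and 31 did not pass, against a background in which 28.7% of all 13570 genes tested were called higher and 28.0% called lower. The median log2 change was -0.17 (interquartile range -0.34 to 0.03), against 0.00 over all genes tested, and 34 members had negative and 13 positive changes. The 15 that fell included Incenp, Ncaph, Spag5, Aurkb, Ttk and Plk1, and the 1 that rose was Ect2, which did not pass with GC offsets. The libraries of the groups did not overlap for 18 members, 2 higher (Ect2 and Ncapg) and 16 lower, where 32.2% of all genes were higher and 31.2% lower without overlap. In this fit the counts of members lower, called or without overlap, lay near these shares of all genes, and the counts higher lay below them. The same shares apply to the counts by role below. For members that were lower, fewer cells in mitosis and less of this RNA in each dividing cell cannot be told apart in bulk RNA.

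The summed level of the 47 genes was 3248, 2986 and 2572 CPM in the RANKL libraries, against 3365, 3183 and 3341 CPM in the ENR control libraries. RANKL replicate 3 was the lowest of the 6, and RANKL replicate 1 lay above ENR control replicate 2. Without RANKL replicate 3, 10 members were called lower and the median change was -0.07, and without RANKL replicate 1, 19 were called lower and the median was -0.27.

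**Figure D1:**
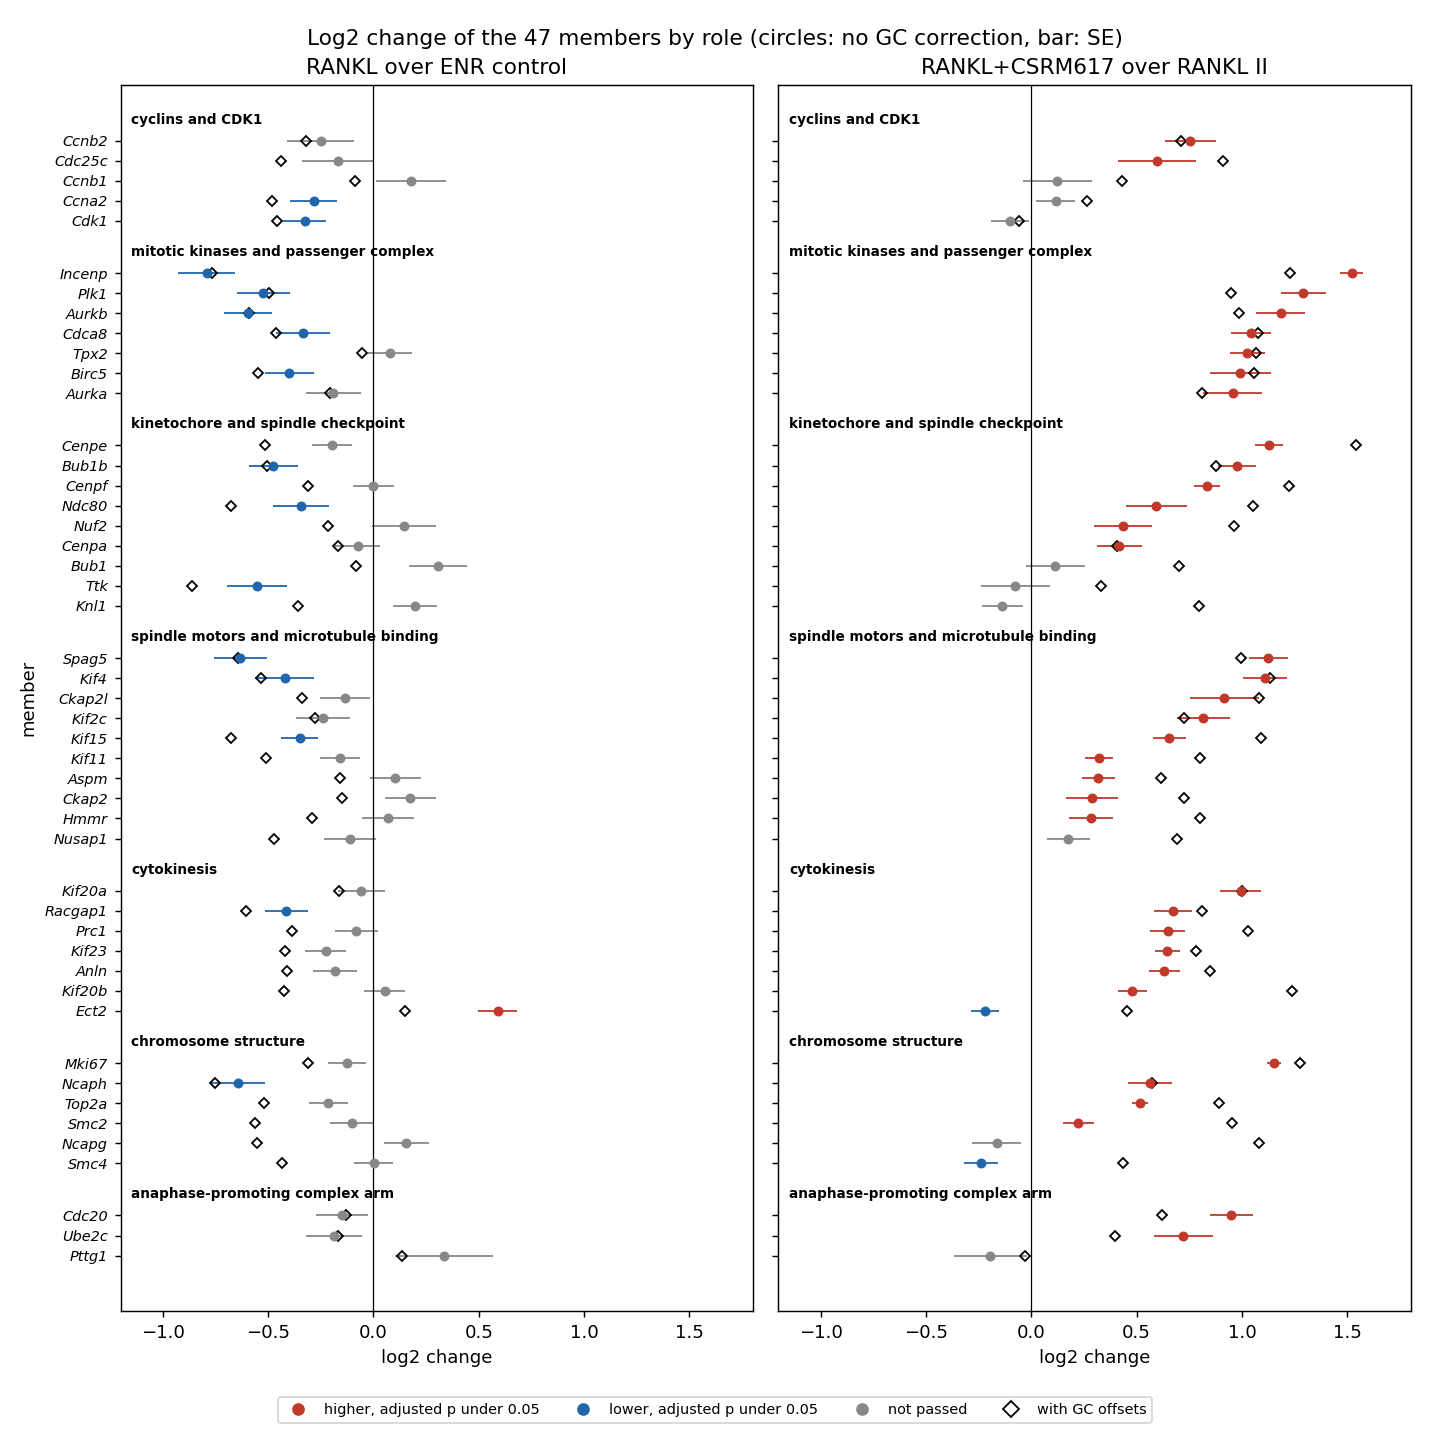
Log2 change of each of the 47 genes, grouped by role, with RANKL over ENR control on the left and RANKL+CSRM617 over RANKL II on the right. Points are edgeR estimates with bars of 1 SE, red for higher and blue for lower at an adjusted p under 0.05, and grey for not passed. Open diamonds are estimates with GC offsets. In the left panel 15 blue points lie below 0 and 1 red point (Ect2) above. In the right panel 36 red points lie above 0 and 2 blue points (Ect2 and Smc4) below, while the diamonds of these 2 lie above 0.

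Among the cyclins and CDK1, 2 of 5 genes fell and none rose. Cdk1, the kinase that drives entry into mitosis, had 44.33, 42.04 and 35.48 CPM in RANKL, against 50.11, 52.51 and 50.27 CPM in ENR control. The groups did not overlap, and the log2 change was -0.33 (SE 0.102, adjusted p = 0.0125, and 0.0647 without RANKL replicate 3). Ccna2, its S and G2 phase cyclin, fell by 0.28 (SE 0.113, adjusted p = 0.0416), a call lost without RANKL replicate 3 or ENR control replicate 2 (adjusted p of 0.0278 to 0.195 with a library left out), with the strict filter and with DESeq2. Exons of Exosc9 on the opposite strand cover 12.5% of Ccna2, and the labels do not give the strand setting of the counting. The B-type cyclins did not pass, with changes of 0.18 for Ccnb1 and -0.25 for Ccnb2 (26.26, 24.75 and 16.11 CPM in RANKL, against 30.34, 25.99 and 23.99 CPM in ENR control). The Ccnb1 count is uncertain, since 3 pseudogene copies (Ccnb1-ps, Gm12856 and Gm8416) match 51.7% to 52.0% of its transcript at 97.3% to 99.2% identity.

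The mitotic kinases and passenger complex held the most calls in this comparison without GC offsets, with 5 of 7 lower and a median of -0.40. With GC offsets that lead was lost. Again 5 of 7 were lower (median -0.49), against 6 of 9 kinetochore genes, 6 of 10 spindle motor genes and 6 of 6 chromosome structure genes (median -0.54). Incenp (chromosome 19, 9872296 to 9899551, minus strand, GRCm38) had 104.2, 86.57 and 84.23 CPM in RANKL, against 174.1, 121.5 and 183.7 CPM in ENR control. All RANKL libraries were below all controls, among which replicate 2 was the lowest. The log2 change of -0.79 (SE 0.136, adjusted p = 2.17e-04) was the largest fall of the 47 without GC offsets. With GC offsets it was -0.76, and Ttk had the larger fall, -0.86. Aurkb, the kinase of that complex, averaged 27.31 ± 3.81 CPM in RANKL and 41.55 ± 1.6 CPM in ENR control (SD, n = 3 libraries each), a change of -0.60 (SE 0.115, adjusted p from edgeR = 3.71e-04). Birc5 (survivin) and Cdca8 (borealin), its other subunits, fell by 0.40 (adjusted p = 0.0088) and by 0.33 (adjusted p = 0.0365), the second with overlapping groups. The Cdca8 call was lost without RANKL replicate 2, RANKL replicate 3 or ENR control replicate 3 (adjusted p up to 0.157), with the strict filter and with DESeq2. Plk1, the polo kinase that acts from G2 to cytokinesis (chromosome 7, 122159439 to 122169873, plus strand), had 35.47, 32.55 and 23.97 CPM in RANKL, against 43.39, 43.31 and 46.38 CPM in ENR control. Its groups did not overlap, with a change of -0.52 (SE 0.127, adjusted p = 0.00248). Aurka, the kinase of the spindle poles, and its activator Tpx2 did not pass, at -0.19 (SE 0.131) and 0.08 (SE 0.105).

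At the kinetochore and spindle checkpoint, 3 of 9 genes fell. Ttk, the checkpoint kinase MPS1, had 16.95, 16.39 and 12.19 CPM in RANKL, against 20.93, 24.39 and 21.48 CPM in ENR control, with no overlap. Its change was -0.55 (SE 0.142, adjusted p = 0.0035). Bub1b, which encodes the checkpoint protein BUBR1, fell by 0.48 (SE 0.116, adjusted p = 0.00256), while its relative Bub1 had a positive change of 0.31 that did not pass (SE 0.138, adjusted p = 0.0714) and that was -0.085 with GC offsets. Ndc80, the microtubule-binding core of the outer kinetochore, fell by 0.34 (adjusted p = 0.0394), a call that ended when any of 4 libraries was left out, with the strict filter and with DESeq2 (adjusted p up to 0.159). Its partner Nuf2 had 0.15, the scaffold Knl1 0.20, the centromeric histone Cenpa -0.07, the kinetochore motor Cenpe -0.20 and Cenpf 0.00, none of which passed.

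Of the spindle motors and microtubule-binding proteins, 3 of 10 fell. Spag5, which holds the spindle poles together, had 51.63, 47.02 and 34.53 CPM in RANKL, against 73.73, 61.57 and 72.89 CPM in ENR control. The groups were apart, and the change was -0.63 (SE 0.128, adjusted p = 5.81e-04). The motor gene Kif15 fell by 0.35 (SE 0.0879, adjusted p = 0.00314) and the chromokinesin Kif4 by 0.42 (adjusted p = 0.0179, over 0.05 without RANKL replicate 3 or ENR control replicate 3, up to 0.0939). Kif11, the motor that pushes the poles apart, had -0.16, and Kif2c, Hmmr, Aspm, Nusap1, Ckap2 and Ckap2l lay between -0.24 and 0.18, without passing.

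The cytokinesis genes split. Racgap1, part of the centralspindlin complex, fell by 0.41 (SE 0.104, adjusted p = 0.00316). Ect2, the exchange factor that centralspindlin recruits to activate RhoA at the cleavage furrow (chromosome 3, 27097222 to 27153878, minus strand), had 121.4, 119.0 and 102.9 CPM in RANKL, against 76.99, 70.37 and 82.03 CPM in ENR control. It was higher in every RANKL library, with a change of 0.59 (SE 0.0931, adjusted p = 6.21e-05). That call ended with offsets for transcript GC content, where the change was 0.15 (adjusted p = 0.24). The other centralspindlin gene Kif23 had -0.23 (adjusted p = 0.0553), Prc1, the bundler of the central spindle, -0.08, Kif20a -0.06, Kif20b 0.05 and the furrow scaffold Anln -0.18, and none of them passed.

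Among the chromosome structure genes, 1 of 6 fell, and 6 of 6 were called lower with GC offsets (median -0.54). Of the 3 genes around the anaphase-promoting complex none passed in either fit. Ncaph, the kleisin of condensin I, had 40.63, 34.47 and 26.13 CPM in RANKL, against 53.76, 52.78 and 52.33 CPM in ENR control. The groups were apart, with a change of -0.64 (SE 0.129, adjusted p = 5.25e-04). Mki67 had 583.3, 539.4 and 479.9 CPM in RANKL, against 621.5, 536.9 and 589.8 CPM in ENR control, overlapping groups with a change of -0.12 (SE 0.0894, adjusted p = 0.25). Top2a had 346.0, 325.8 and 269.3 CPM in RANKL, against 369.2, 374.1 and 349.6 CPM in ENR control, a change of -0.22 that did not pass (SE 0.0923, adjusted p = 0.0578) although no libraries overlapped. The condensin ATPases Smc2 and Smc4 had -0.10 and 0.00, and the condensin subunit Ncapg 0.16. With GC offsets these 3 were called lower, at -0.56, -0.43 and -0.55. Cdc20 had -0.15, the ubiquitin-conjugating enzyme gene Ube2c -0.19 and Pttg1 0.34, the last with an SE of 0.233.

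In the second comparison, which asked what CSRM617 changed in the presence of RANKL, mitotic genes were higher in RANKL+CSRM617 organoids. Of the 47, 36 rose, 2 fell (Ect2 and Smc4, both called higher with GC offsets) and 9 did not pass, against a background of 35.2% of 14167 genes called higher and 36.2% called lower. The median log2 change was 0.63, or 1.55-fold (interquartile range 0.25 to 0.97), against -0.02 over all genes tested. The groups did not overlap for 38 members, 36 higher and 2 lower, where 36.1% of all genes were higher and 37.0% lower without overlap. The summed level of the 47 was 1493, 1509 and 1526 CPM in the RANKL+CSRM617 libraries, against 943.5, 957.1 and 964.4 CPM in the RANKL II libraries, with each group within a narrow range.

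**Figure D2:**
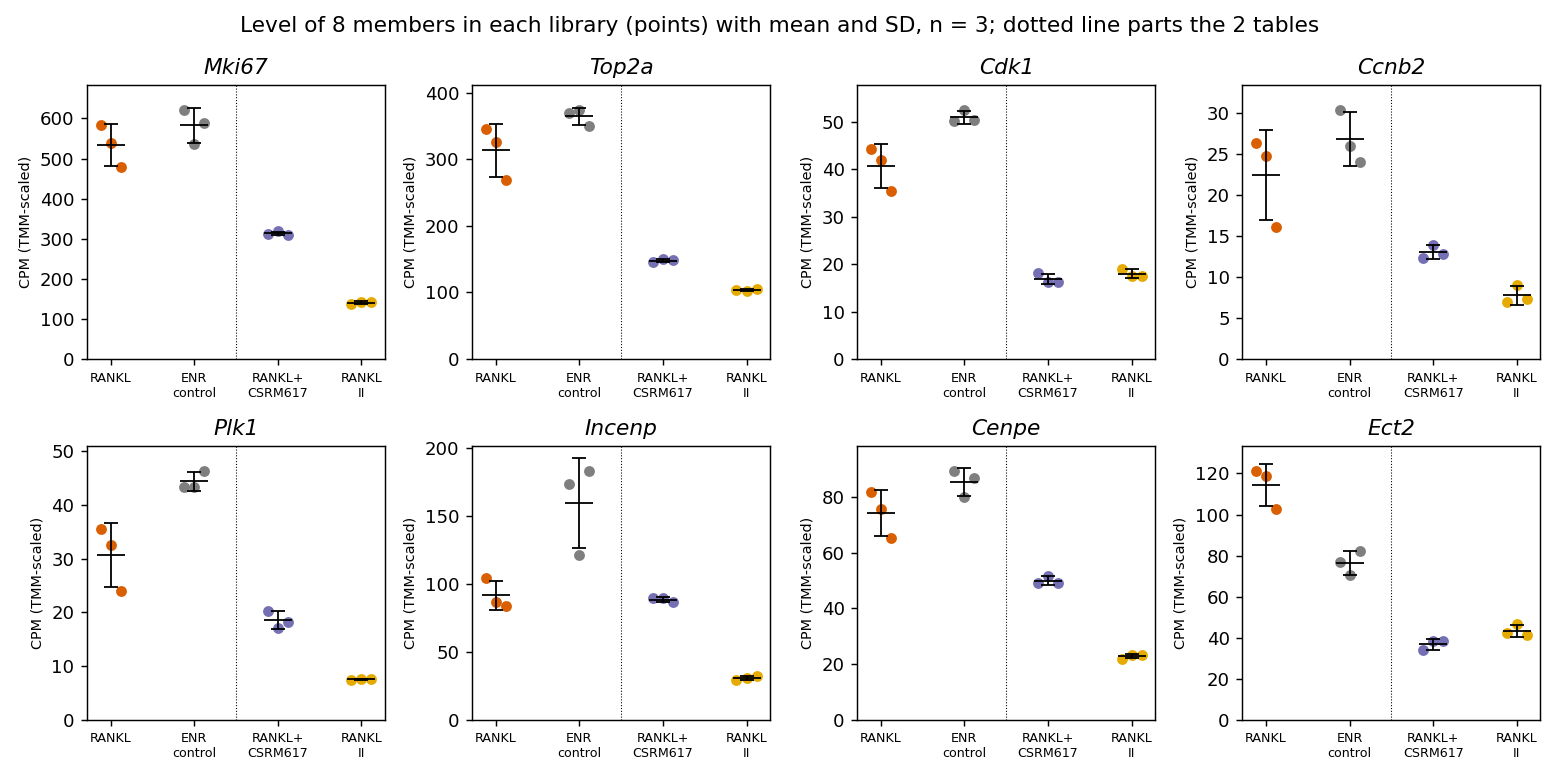
Level of 8 members in each library, in CPM on linear axes that start at 0, with the group mean and SD (n = 3) as bars; the dotted line parts the 2 tables, which were scaled separately. Among the CSRM617 libraries, 6 of the 8 genes (Mki67, Top2a, Ccnb2, Plk1, Incenp and Cenpe) are higher throughout than in any RANKL II library, Cdk1 overlaps and Ect2 is lower in these CPM values, which carry no GC offsets.

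The mitotic kinases and passenger complex had the highest median of the 7 roles, 1.04, with 7 of 7 higher. Incenp had 89.58, 89.5 and 86.48 CPM in RANKL+CSRM617, against 29.32, 30.6 and 32.27 CPM in RANKL II. The lowest RANKL+CSRM617 library was far above the highest RANKL II library. The log2 change of 1.52 (SE 0.0561, adjusted p = 1.06e-26), a 2.87-fold difference, was the largest of the 47 without GC offsets. With GC offsets it was 1.227, below those of Cenpe (1.54), Mki67 (1.275) and Kif20b (1.236). Plk1 had 20.34, 17.1 and 18.15 CPM in RANKL+CSRM617, against 7.46, 7.521 and 7.528 CPM in RANKL II, without overlap. Its change was 1.29 (SE 0.109, adjusted p = 3.15e-14). Aurkb rose by 1.18 (SE 0.117), Cdca8 by 1.04 (SE 0.0953), Tpx2 by 1.03 (SE 0.0821), Birc5 by 0.99 (SE 0.145) and Aurka by 0.96 (SE 0.139), with adjusted p of at most 6.59e-08 for these.

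Of the cyclin, CDK1 and CDC25 genes, 2 of 5 were called higher, and 4 of 5 with GC offsets. Cdk1 had 18.07, 16.29 and 16.13 CPM in RANKL+CSRM617, against 19.06, 17.41 and 17.54 CPM in RANKL II, overlapping groups with a change of -0.10 (SE 0.0904, adjusted p = 0.309). Ccna2 had 0.12 (adjusted p = 0.271) and Ccnb1 0.12 (adjusted p = 0.509), and with GC offsets both were called higher, at 0.27 (adjusted p = 0.0045) and 0.43 (adjusted p = 0.00863). Ccnb2 had 12.33, 13.93 and 12.75 CPM in RANKL+CSRM617, against 6.942, 9.066 and 7.288 CPM in RANKL II, with no overlap. It rose by 0.76 (SE 0.12, adjusted p = 3.61e-07). Cdc25c rose by 0.60 (SE 0.186, adjusted p = 0.0041), a call that DESeq2 did not make (adjusted p = 0.0533), at 30 to 67 counts per library. Gm3550 on the opposite strand overlaps 12.7% of the Cdc25c exons and held 0 to 2 counts per library.

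At the kinetochore and checkpoint, 6 of 9 genes rose. Cenpe, the motor that carries chromosomes to the spindle equator (chromosome 3, 135212537 to 135273611, plus strand), had 49.23, 51.71 and 48.97 CPM in RANKL+CSRM617, against 21.97, 23.18 and 23.39 CPM in RANKL II. The groups were well apart, and the change was 1.13 (SE 0.066, adjusted p = 1.71e-19). Bub1b rose by 0.98 (SE 0.092, adjusted p = 8.45e-13), Cenpf by 0.84 (SE 0.0617), Ndc80 by 0.59, Nuf2 by 0.43 and Cenpa by 0.42. Nuf2 lost its call without RANKL II replicate 3 (adjusted p = 0.0642). The 3 that did not pass were Bub1 (0.11), Ttk (-0.07) and Knl1 (-0.14).

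Among the spindle motors and microtubule-binding proteins, 9 of 10 rose. Spag5 had 24.99, 28.99 and 24.28 CPM in RANKL+CSRM617, against 10.98, 12.57 and 12.33 CPM in RANKL II, and Kif4 had 18.72, 18.24 and 18.39 CPM in RANKL+CSRM617, against 8.91, 7.933 and 8.729 CPM in RANKL II. Neither gene's groups overlapped, and the changes were 1.12 (SE 0.0937, adjusted p = 1.96e-14) for Spag5 and 1.11 (SE 0.104, adjusted p = 6.39e-13) for Kif4. Exons of Pdzd11 on the opposite strand cover 15.1% of Kif4. The spindle protein gene Ckap2l rose by 0.92, the microtubule depolymerase Kif2c by 0.82, Kif15 by 0.66, Kif11 by 0.32, the pole protein Aspm by 0.32, Ckap2 by 0.29 and the hyaluronan receptor and spindle gene Hmmr by 0.28. The calls of Hmmr (adjusted p up to 0.0887) and Ckap2 (up to 0.206) were lost with some libraries left out and with DESeq2, and that of Ckap2 also with upper-quartile factors and with no filter. Nusap1 had 0.17 (adjusted p = 0.124), although its groups did not overlap.

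Of the cytokinesis genes, 6 of 7 rose and Ect2 fell. Kif20a, which carries the passenger complex to the midzone, rose by 0.99 (SE 0.0967, adjusted p = 2.17e-12), with 29.3% of its exons overlapped by Cdc23 on the opposite strand. Cdc23 itself fell by 0.47. Racgap1 rose by 0.67, Prc1 by 0.65, Kif23 by 0.65 (SE 0.0599), Anln by 0.63 and Kif20b by 0.48. Rccd1 on the opposite strand overlaps 11.1% of the Prc1 exons. Ect2 had 33.76, 38.2 and 38.56 CPM in RANKL+CSRM617, against 42.07, 46.47 and 41.32 CPM in RANKL II. It was lower in all RANKL+CSRM617 libraries, at -0.22 (SE 0.065, adjusted p = 0.00262), but with GC offsets it was called higher, at 0.45 (adjusted p = 9.91e-12).

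The chromosome structure genes gave 4 higher, 1 lower and 1 that did not pass. Mki67 (chromosome 7, 135689784 to 135716361, minus strand) had 311.5, 318.7 and 310.6 CPM in RANKL+CSRM617, against 136.5, 143.0 and 143.4 CPM in RANKL II. Its change of 1.15 (SE 0.0331, adjusted p = 1.24e-30) had the smallest SE of the 47, and the groups were far apart. Top2a had 145.1, 149.7 and 148.9 CPM in RANKL+CSRM617, against 102.9, 102.3 and 105.2 CPM in RANKL II, a smaller difference of 0.52 (SE 0.0382, adjusted p = 4.72e-16). Ncaph rose by 0.56 (SE 0.104) and Smc2 by 0.22 (adjusted p = 0.00549, and 0.0764 without RANKL+CSRM617 replicate 3). Smc4 fell by 0.24 (SE 0.0806, adjusted p = 0.0155) with overlapping groups, a call lost when any of 4 libraries was left out and turned to 0.43 with GC offsets (adjusted p = 1.12e-14). Ncapg had -0.17 (adjusted p = 0.192), with 13.4% of its exons overlapped by Lcorl on the opposite strand. Around the anaphase-promoting complex, Cdc20 had 19.91, 19.06 and 17.34 CPM in RANKL+CSRM617, against 10.36, 8.86 and 9.771 CPM in RANKL II, and rose by 0.95 (SE 0.103, adjusted p = 4.53e-11). Ube2c rose by 0.72 (adjusted p = 1.46e-05), with 22.8% of its exons overlapped by Tnnc2 on the opposite strand. Pttg1 had -0.19 (adjusted p = 0.316), at 36 to 56 counts per library.

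No library was shared between the comparisons. Of the 15 genes that fell with RANKL, 12 rose with CSRM617: Plk1, Aurkb, Incenp, Birc5, Cdca8, Bub1b, Ndc80, Kif15, Kif4, Spag5, Racgap1 and Ncaph. The other 3, Cdk1, Ccna2 and Ttk, did not pass in the second comparison. Of all 47 members 36 rose with CSRM617, a share near that among the 15. Of the 31 members that did not pass with RANKL, 24 rose. The share of all genes called lower and then higher was not computed. Ect2 was called in the opposite sense in each, higher with RANKL and lower with CSRM617, but with GC offsets it did not pass in the first and was called higher in the second. By these calls a further 24 members were higher in the second comparison only, among them Mki67, Top2a, Cenpe, Cenpf, Tpx2 and Kif20a, and Smc4 was lower in it only. Whether the changes of these members differ between the comparisons was not tested.

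In both comparisons the log2 change moved with the GC content of a gene's transcript. The members' longest transcripts had a median GC content of 46.0%, from 34.8% for Ncapg to 56.0% for Plk1, against 49.2% over all genes tested. The longest annotated transcript was taken whatever its structure, and the GC offsets rest on it. It had 1 exon for Cdc25c and Cenpa, 2 for Nuf2 and 3 for Birc5 and Prc1. Across the 47 members the Spearman correlation of GC content with the log2 change was -0.60 for RANKL against ENR control and 0.70 for RANKL+CSRM617 against RANKL II. Over all genes it was -0.32 and 0.59. The members are not independent, and each value rests on the same 6 libraries of a table. The 23 members of lower GC had a median change of 0.00 in the first comparison and 0.32 in the second, and the 24 of higher GC had -0.27 and 0.95. Incenp, Plk1, Aurkb and Spag5, at 51.1% to 56.0%, are on the high side, and Ect2, Smc4, Smc2, Knl1, Kif20b and Ncapg, at 34.8% to 40.2%, on the low side.

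**Figure D3:**
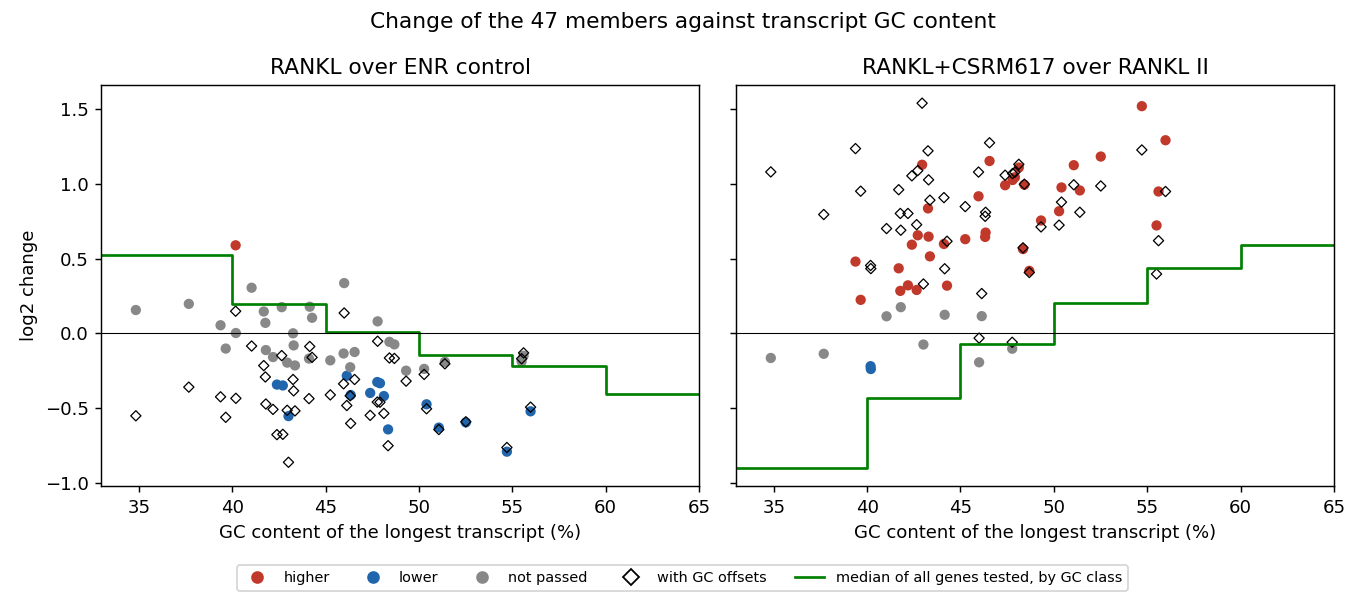
Log2 change against the GC content of the longest transcript for the 47 members (filled points, coloured by call, with open diamonds for the fit with GC offsets), RANKL over ENR control on the left and RANKL+CSRM617 over RANKL II on the right; the green steps are the medians of all genes tested by GC class. On the left the steps run from 0.52 under 40% GC to -0.41 over 60%, and on the right from -0.90 to 0.59.

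A fit with an offset per library for this trend changed the counts. In the first comparison 31 members were called lower, none higher and 16 did not pass, where 36.0% of all genes were called lower and 21.0% higher. The offsets moved the median of all genes to -0.13, and the members' median of -0.43 was 0.29 below it. In the second comparison 44 were called higher, none lower and 3 did not pass (Cdk1, Ttk and Pttg1), where 33.3% of all genes were called higher and 30.2% lower. The members' median was 0.85, against 0.01 over all genes. Knl1, Ncapg and Bub1, at -0.14, -0.17 and 0.11 without the offsets, had 0.80, 1.08 and 0.70 with them in the second comparison. With the offsets 29 of the 31 members lower in the first comparison were higher in the second, where 44 of all members were higher. Mki67 (-0.31 and 1.27) and Top2a (-0.52 and 0.89) were among the 29. The share of all genes with this pair of calls was not computed. Other measures of the libraries also differed between the groups of each table, as the ribosomal RNA share did. Mitochondrial genes took 2.518% to 2.888% of counts in RANKL and 5.429% to 7.958% in ENR control, and 8.613% to 11.04% in RANKL+CSRM617 and 6.039% to 6.112% in RANKL II. The nuclear RNA Malat1 took 2.49% to 2.951% in RANKL and 0.6748% to 0.757% in ENR control, and 2.368% to 2.528% in RANKL+CSRM617 and 3.326% to 3.449% in RANKL II. Neat1, also nuclear, took 0.4353% to 0.4974% in RANKL and 0.04843% to 0.06348% in ENR control, and 0.6643% to 0.674% in RANKL+CSRM617 and 0.715% to 0.725% in RANKL II. The part of these shares and of the GC trend in the members' changes was not tested.

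The DNA replication genes act in S phase, just before the members. Of 50 such genes, 48 fell and 1 rose in RANKL against ENR control, with a median of -0.74. Cdt1, which licenses origins, averaged 31 ± 1.01 CPM in RANKL and 84.74 ± 1.11 CPM in ENR control, and Mcm5, a subunit of the replicative helicase, 55.76 ± 4.45 and 138.7 ± 4.96 CPM (SD, n = 3 each), changes of -1.45 and -1.31. In RANKL+CSRM617 against RANKL II, 23 rose, 6 fell and 21 did not pass, with a median of 0.18. The shares over all genes tested were 28.7% higher and 28.0% lower in the first comparison, and 35.2% and 36.2% in the second. Clspn, a checkpoint adaptor at the fork, rose by 1.49, Mcm5 by 0.49 and Mcm3 by 0.40, while Mcm6 fell by 0.15 and Mcm7 had -0.02. The summed level of the 47 members over that of the replication genes was 1.71, 1.72 and 1.54 in RANKL, against 1.09, 0.985 and 1.06 in ENR control. It was 1.61, 1.6 and 1.64 in RANKL+CSRM617, against 1.18, 1.22 and 1.21 in RANKL II. In each table the ratio was thus higher in every library of the first named group.

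**Figure D4:**
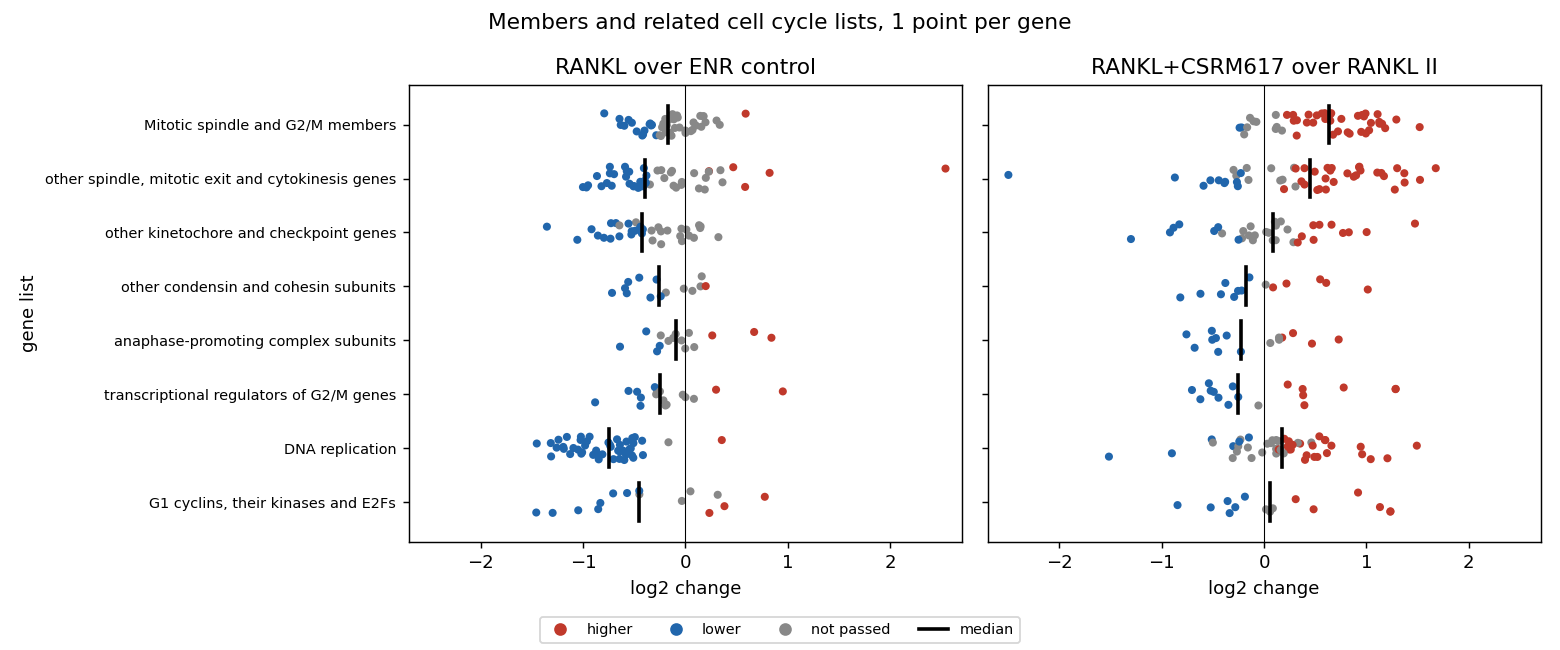
Log2 change of the 47 members and of the genes of 7 related lists, as points with the list's median as a bar, RANKL over ENR control on the left and RANKL+CSRM617 over RANKL II on the right. The medians of the members are -0.17 and 0.63 and those of the DNA replication genes -0.74 and 0.18.

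Other genes of the spindle, mitotic exit and cytokinesis that are not members gave 26 lower and 5 higher of 48 in the first comparison (median -0.39), and 29 higher and 10 lower in the second (median 0.45). Numa1, which anchors microtubules at the poles, fell by 0.59 with RANKL and rose by 0.81 with CSRM617, and Espl1 (separase) fell by 0.74 and rose by 1.28. Depdc1a went against them, with 14.66 ± 0.917 CPM in RANKL and 2.375 ± 0.889 CPM in ENR control, and 2.124 ± 0.684 CPM in RANKL+CSRM617 and 12.27 ± 1.1 CPM in RANKL II (SD, n = 3 each). Further kinetochore and checkpoint genes gave 17 lower and none higher of 35 (median -0.42), and then 10 higher and 7 lower of 33 (median 0.09, and 0.38 with GC offsets). Mad1l1, the checkpoint protein MAD1, rose by 1.47 with CSRM617. Other condensin and cohesin subunits gave 8 lower and 1 higher of 14, and then 5 higher and 8 lower, a split that became 12 higher and none lower with GC offsets. Subunits of the anaphase-promoting complex gave 4 lower and 3 higher of 15, and then 8 lower and 4 higher. Beside these lists, 28.0% of all genes tested were called lower and 28.7% higher in the first comparison. In the second, 35.2% were called higher and 36.2% lower (33.3% and 30.2% with GC offsets).

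Of 17 regulators of G2/M transcription, 6 fell and 2 rose with RANKL, and 9 fell and 7 rose with CSRM617. Over all genes tested, 28.0% fell and 28.7% rose with RANKL, and 36.2% fell and 35.2% rose with CSRM617. Foxm1, the forkhead factor of the G2/M wave, averaged 32.86 ± 6.09 CPM in RANKL and 61.55 ± 12.8 CPM in ENR control, a change of -0.88 (SE 0.155, edgeR adjusted p = 2.59e-04). It averaged 18.34 ± 1.46 CPM in RANKL+CSRM617 and 7.529 ± 0.15 CPM in RANKL II (SD, n = 3 each), a change of 1.29 (SE 0.109). Mybl2, which encodes B-MYB, had -0.28 with RANKL (adjusted p = 0.129) and rose by 1.28 with CSRM617 (SE 0.11). The G1 cyclins, their kinases and E2F genes gave 8 lower and 3 higher of 15 with RANKL, E2f8 at -1.46 and Ccnd1 at 0.78, and 6 higher and 6 lower with CSRM617, E2f2 at 1.24 and Cdk6 at -0.84. Among 15 genes of CDK inhibitors and G2 brakes tested, 5 rose and 7 fell with RANKL. The 3 with the smallest p were the inhibitors Cdkn1a (p21), higher by 2.52, Cdkn2b (p15), higher by 2.79, and Cdkn2a, higher by 5.26. With CSRM617, 6 rose and 4 fell, with Cdkn1a higher by 0.41 and Cdkn1b (p27) lower by 0.68.

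Markers of epithelial cell types moved in the same libraries. For scale, 28.7% of all genes tested rose and 28.0% fell with RANKL, and 35.2% rose and 36.2% fell with CSRM617. With RANKL all 10 M cell markers rose (median 5.62), 7 of 12 crypt stem cell markers fell and 3 rose, 6 of 7 Paneth cell markers fell and 1 rose, and 5 of 10 mature enterocyte markers rose and 5 fell. Lgr5 averaged 52.14 ± 1.21 CPM in RANKL and 424.6 ± 29.2 CPM in ENR control, and 6.243 ± 0.632 CPM in RANKL+CSRM617 and 11.38 ± 0.423 CPM in RANKL II (SD, n = 3 each). Lgr5 was thus lower in RANKL+CSRM617 than in RANKL II (-0.85), while the 11 crypt stem cell markers tested there had a median of -0.04. With CSRM617 all 10 mature enterocyte markers rose (median 1.18), 6 of 7 Paneth cell markers rose and 1 fell, 5 of 11 stem cell markers fell and 3 rose, and 5 of 10 M cell markers fell and 4 rose. The part of these shifts in the members' changes was not tested.

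The 33 members with a CHR in a promoter window and the 7 without (Ccnb1, Birc5, Nuf2, Cenpe, Nusap1, Ncaph and Pttg1) were both spread over the range of changes. With RANKL, 10 of the 33 fell and 1 rose (median -0.18), and 2 of the 7 fell (median -0.11). With CSRM617, 27 of the 33 rose and 1 fell (median 0.65), and 4 of the 7 rose (median 0.43). Among all genes tested, 28.0% fell and 28.7% rose with RANKL, and 36.2% fell and 35.2% rose with CSRM617. The counts that fell with RANKL were thus near the share of all genes. Cenpe and Birc5, whose windows hold no CHR, rose by 1.13 and 0.99. Ect2, with CHRs and CCAAT boxes in its windows, fell, or rose with GC offsets.

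Levels of the members also stood apart between the tables, which were scaled separately and were not tested against each other. In 46 of 47 members every RANKL II library was below every RANKL library, although both groups had RANKL at the same dose for 6 days, and the exception was Pttg1. The ratio of RANKL II to RANKL had a median of 0.31 over the 47, from 0.207 to 0.817. RANKL+CSRM617 libraries were all below the RANKL libraries in 46 members (median ratio 0.487, with Incenp as the exception) and below the ENR control libraries in 46 members (median ratio 0.418, with Pttg1 as the exception). The shares of all genes apart in these ways were not computed, so these counts do not show whether the gap is particular to the members. As scaled within each table, the rise with CSRM617 is a difference between levels that were both below those of the first table for nearly every member. Which difference between the experiments goes with this was not tested.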

How the data were processed

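The authors deposited 2 tables of raw counts per gene symbol. Per the submitters' processing notes these came from STAR and HTSeq 0.13.5 on mm10 (GRCm38), and DESeq2 1.34.0 is also named there, with no step. Per the labels the reads were 42-bp pairs. The sources used here do not name the annotation, the STAR version or the strand setting. A second pair of tables that the authors deposited holds normalized log2 values, which served only for limma as an alternative. Per the labels, libraries were made from 1 µg of RNA after ribosomal RNA depletion.

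The counts of the 6 libraries of each table were fitted with edgeR 4.0.16 (TMM factors, filterByExpr defaults, robust quasi-likelihood, no covariate), with Benjamini-Hochberg adjustment over all genes tested. On simulated counts with 200 genes of higher count changed by 1 log2 unit up or down, the fit recovered 96.5% in the first design (13339 genes) and 97% in the second (13942 genes). The simulation held no GC trend, and most members changed by less than 1 log2 unit. These shares therefore do not give the power for the members. SE is the size of the log2 change before the shrinkage that edgeR applies to the changes given here, over the square root of F. Exons, GC content and coordinates came from GENCODE M21 and copies from a megablast search of its transcripts. GC offsets were natural splines with 5 degrees of freedom per library. Alternatives were RLE and upper-quartile factors, no filter, a strict filter (at least 1 CPM in all 6 libraries), no ribosomal RNA loci or mitochondrial genes, DESeq2 1.42.0, limma, a replicate block, GC and length offsets, and leaving out each library.

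All 47 members are accounted for. Values in every library are given for members with the smallest adjusted p or the largest or smallest change in a role, and at most 4 genes of each further list are named by smallest adjusted p, with Foxm1, Mybl2, Cdkn1a and Mcm genes allowed besides. The members and lists were chosen with earlier results of these data known. Some genes of the marker lists are not reported here.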

Additional observations from a re-analysis of the deposited data

How the results depend on the processing

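For RANKL against ENR control, 15 members were called lower and 1 higher. The count called lower was 31 with GC offsets, 33 with GC offsets and a replicate block and 32 with GC and length offsets, each time with 0 called higher, and 3 settings thus ended the Ect2 call. With a replicate block alone 17 members were called lower and 1 higher. Leaving out each library in turn gave 10 to 19 lower and 1 to 3 higher, with 2 higher without RANKL replicate 3 and 3 without ENR control replicate 2. For RANKL+CSRM617 against RANKL II, 36 members were called higher and 2 lower. The count called lower was 0 with GC offsets, with and without the replicate block, and with GC and length offsets. Leaving out each library gave 34 to 36 higher and 1 to 4 lower, with 1 lower without RANKL+CSRM617 replicate 1 or 2 or RANKL II replicate 1 or 3, and 4 without RANKL+CSRM617 replicate 3. The replicate block left 36 higher and 2 lower. The counts over all genes tested stayed within 1.5 times of the values given, in all settings run. With GC offsets the share of calls among all genes moved towards lower for RANKL (2846 higher and 4883 lower, against 3897 and 3802 without them) and towards higher for CSRM617 (4720 and 4275, against 4980 and 5134).

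Of the 16 calls in the first comparison, 10 passed in every setting fitted, and of the 38 in the second, 32 did, Ect2 with its sign turned. The members whose sign turned in the first comparison with GC offsets, with GC offsets and the replicate block, and with GC and length offsets, in that order, were Ccnb1 (-0.088, -0.092 and -0.12), Tpx2 (-0.053, -0.064 and -0.005), Bub1 (-0.085, -0.083 and -0.072), Nuf2 (-0.22, -0.20 and -0.19), Knl1 (-0.36, -0.37 and -0.34), Hmmr (-0.29, -0.29 and -0.26), Aspm (-0.16, -0.17 and -0.18), Ckap2 (-0.15, -0.15 and -0.18), Kif20b (-0.42, -0.43 and -0.38), Smc4 (-0.43, -0.44 and -0.39) and Ncapg (-0.55, -0.56 and -0.51). In the second comparison they were Ttk (0.33, 0.33 and 0.37), Knl1 (0.80, 0.79 and 0.64), Ect2 (0.45, 0.45 and 0.43), Smc4 (0.43, 0.43 and 0.40) and Ncapg (1.08, 1.08 and 1.02), and Pttg1 with GC and length offsets (0.088). Members near 0 turned in other settings of the first comparison: Cenpf had a change of 0.000 with RLE factors, 0.001 with DESeq2, 0.003 without ribosomal RNA loci and mitochondrial genes and 0.025 with the strict filter, and Smc4 had -0.016 with upper-quartile factors and -0.002 with no filter. With a library left out, the ranges of the members that turned were Tpx2 (-0.036 to 0.16), Aspm (-0.006 to 0.25), Kif20b (-0.025 to 0.14), Smc4 (-0.062 to 0.065), Cenpf (-0.090 to 0.074), Hmmr (-0.032 to 0.18), Nusap1 (-0.23 to 0.019) and Kif20a (-0.17 to 0.010) in the first comparison and Ttk (-0.18 to 0.037), Bub1 (-0.13 to 0.26) and Ccnb1 (-0.049 to 0.29) in the second. Ect2 and Smc4 in the second comparison were the called members that turned. The cause of these turns was not tested.

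Libraries with the same experiment number did not deviate together: the correlation of their deviations from the group means was between -0.011 and 0.057, so the number was not taken as a pairing, and a call that differs under the block says nothing of its strength. Precision is limited by 3 libraries per group and by depth for Pttg1 and Cdc25c, at 16 to 109 counts per library. Other members were also low in RANKL II, where Pttg1 averaged 4.56 CPM. Among them were Ckap2l (4.515 CPM), Aurka (4.969), Birc5 (4.997), Ttk (5.145) and Ndc80 (5.206). All values come from 1 organoid line.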
